A study of Mus musculus with 9 samples.

Results

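The genes that load and present peptides on MHC class II molecules were followed in mouse thymus cells from which CD45-bearing cells had been depleted, without and after irradiation. The list holds H2-Aa, H2-Ab1 and H2-Eb1, which encode chains of the class II molecules, and Cd74, H2-DMa, H2-DMb1, H2-Oa, Ciita, Ctss and Ifi30. A probe set counted for a gene where it was annotated to that symbol alone. This found 9 of the 10 genes on 17 probe sets, among 18193 genes in all. The missing gene is H2-DMb1, whose 2 probe sets are also annotated to H2-DMb2 and were not used here. All 9 genes reached a log2 value of 4 on 3 or more arrays, the level taken here as detection, as did 10937 genes in all. A gene with several probe sets is represented by the one whose mean over the 9 arrays was highest. The arrays came from female C57BL/6J mice of 6 to 8 weeks, with 3 arrays for each of 3 groups, which were untreated or taken 4 or 7 days past the exposure. The irradiated mice received 550 cGy from a cesium source and no hematopoietic rescue, in a treatment the labels call SL-TBI, usually read as sublethal total body irradiation. Leukocytes were depleted with beads carrying an antibody to CD45, and each sample pooled several mice. Whether replicate samples are separate pools is not stated in the labels, so the p-values measure the spread between these samples, which may be technical. The labels also speak of pooled "ECs" without explaining the abbreviation.

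MHC class II molecules show peptides of engulfed or recycled proteins to CD4 T cells. In most tissues they are borne by B cells, dendritic cells and macrophages, but thymic epithelial cells carry them all the time, and developing CD4 T cells are selected on them. The alpha and beta chains assemble around the invariant chain, the product of Cd74. Lysosomal proteases cut the invariant chain down to a fragment, CLIP, which the H2-DM heterodimer (H2-DMa with an H2-DMb chain) exchanges for peptide, while the H2-O heterodimer (H2-Oa with H2-Ob) restrains H2-DM. In mice, cathepsin S, encoded by Ctss, does the cutting in B cells and dendritic cells, and cathepsin L, encoded by Ctsl, does it in cortical epithelium. Ifi30 encodes GILT, a lysosomal thiol reductase that opens disulfide bonds of antigens. Ciita encodes the co-activator on which class II transcription depends. It binds no DNA itself but sits on a complex of RFX, CREB and NF-Y proteins at a pair of promoter elements, the X and Y boxes.

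The promoters of 3 members with letters matching that pair of elements are shown to set them beside that of Ctss, which has no such match in its window and had the largest fall of the genes. They are RefSeq windows of build GRCm38.p6, from 250 bases before to 50 bases after the annotated start. H2-Aa is at chr17:34287774-34288073 on the minus strand, H2-Eb1 at chr17:34305617-34305916 on the plus strand, H2-Oa at chr17:34092129-34092428 on the plus strand and Ctss at chr3:95526536-95526835 on the plus strand. Capitals in the first 3 mark an X-type run (GNAAC, within the longer AGNAACNG for H2-Eb1) and the Y box ATTGG. In Ctss they mark GAAA, any 2 bases and GAAA again, which resembles the site bound by interferon regulatory factors.
H2-Aa: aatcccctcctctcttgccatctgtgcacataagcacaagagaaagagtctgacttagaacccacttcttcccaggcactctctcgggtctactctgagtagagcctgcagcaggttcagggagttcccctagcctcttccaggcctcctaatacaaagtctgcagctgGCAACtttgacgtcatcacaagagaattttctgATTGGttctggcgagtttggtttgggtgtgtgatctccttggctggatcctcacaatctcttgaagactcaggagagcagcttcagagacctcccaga
H2-Eb1: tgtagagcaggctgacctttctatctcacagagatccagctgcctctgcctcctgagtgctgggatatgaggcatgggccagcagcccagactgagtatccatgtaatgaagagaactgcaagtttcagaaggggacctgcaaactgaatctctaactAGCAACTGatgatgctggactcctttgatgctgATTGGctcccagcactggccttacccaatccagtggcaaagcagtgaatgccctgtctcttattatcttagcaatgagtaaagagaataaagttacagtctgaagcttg
H2-Oa: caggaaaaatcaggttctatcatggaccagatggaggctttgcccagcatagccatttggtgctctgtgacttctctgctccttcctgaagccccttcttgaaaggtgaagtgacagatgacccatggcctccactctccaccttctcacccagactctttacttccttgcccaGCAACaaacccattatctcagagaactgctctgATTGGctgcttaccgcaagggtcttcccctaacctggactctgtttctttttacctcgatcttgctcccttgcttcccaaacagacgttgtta
Ctss: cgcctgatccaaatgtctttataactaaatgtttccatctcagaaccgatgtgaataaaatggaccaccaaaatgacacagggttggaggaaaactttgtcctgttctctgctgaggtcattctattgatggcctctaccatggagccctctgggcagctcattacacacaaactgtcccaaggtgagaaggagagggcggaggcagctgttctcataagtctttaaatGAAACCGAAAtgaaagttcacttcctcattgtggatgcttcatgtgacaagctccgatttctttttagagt

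The promoter table held 8 windows of 7 of the genes, with none for H2-Ab1, Cd74 and Ciita. Each motif was searched on both strands in all 32851 windows of the table. ATTGG or CCAAT was present in 5 of the 8 windows and in 37.4% of all windows. The X core AGNAACNG was present in 3 of the 8 and in 17.4% of all. The core followed after 10 to 30 bases by ATTGG on the same strand was found for H2-Eb1 and H2-DMb1 and in 0.323% of all windows. A looser pair, GNAAC followed after 25 to 30 bases by ATTGG, was chosen after these sequences had been seen. GNAAC is contained in the X core, so both searches overlap. The looser pair was found for H2-Aa, H2-Eb1, H2-Oa and H2-DMb1 and in 1.04% of all windows. The bases between its ends numbered 27 in H2-Eb1 and 28 in the other 3 windows. The paired GAAA run, also chosen after the sequences were seen, was found in Ctss alone among the 8 windows and in 3.44% of all. Like Ctss, H2-DMa, which rose on both days, and Ifi30 had neither pair in their windows. Matches describe letters and not bound sites, and their part in the differences was not tested.

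The arrays measured a mixture whose blood-cell part differed widely between groups. The mean of 8 pan-leukocyte genes lay between 5.82 and 5.99 on the day 4 arrays and between 6.93 and 7.12 on the day 7 arrays, against 9.49 to 9.71 on the untreated arrays (log2). Ptprc, which encodes CD45, averaged 4.64 at day 4 and 9.51 at day 7, against 12.22 in untreated, so its transcript was well above the detection level in the untreated samples despite the depletion. The epithelial marker Epcam averaged 11.08 at day 4 and 10.78 at day 7, against 11.18 in untreated (adjusted p 0.657 and 0.115). Other epithelial genes did differ. Of 13 general epithelial genes tested, 7 rose and 1 fell at day 4, where 41.8% of all genes rose and 21.4% fell. At day 7, 5 rose and 4 fell, where 32.1% of all genes rose and 22% fell. In such bulk samples, fewer cells of a type and less RNA per cell cannot be told apart. Untreated replicate 3 stood apart from the other 2 untreated arrays. It was the lowest untreated array for 8 of the 9 class II genes, as replicate 3 also was for 7 genes at day 4 and 7 at day 7, with smaller median deviations from the group mean (-0.11 and -0.08, against -0.27). The mean over 9 medullary epithelial genes was 6.44 on untreated replicate 3, against 7.48 and 7.73 on the other untreated arrays. Results of the 9 class II genes that rest on that array are therefore given with and without it. Genes of the other lists are given with all arrays only. RNA quality was read from the Actb control probe sets, whose 3-prime minus 5-prime value was 3.01 to 3.32 at day 4 and 2.30 to 2.71 at day 7, against 2.16 to 2.45 in untreated. Its part in the results below was not tested.

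Among the 9 class II genes, the chains H2-Aa, H2-Ab1 and H2-Eb1 and Cd74 were not called in any comparison of the model reported here, with all arrays. Their regulator and several loading factors were. Array weights and centring on 4 stromal lists, also with all arrays, called some of the chains and Cd74 lower, as given below. At day 4, 2 of the 9 genes rose (Ciita and H2-DMa) and 1 fell (Ctss). Of all genes tested, 63.2% were called in this comparison, 41.8% higher and 21.4% lower. At day 7, 2 genes were above untreated (H2-DMa and Ciita) and 2 below (Ctss and H2-Oa), where 54.1% of all genes were called, 32.1% higher and 22% lower. Between day 7 and day 4, 3 genes fell (Ctss, H2-Oa and Ciita) and 0 rose, against 27.3% of all genes called, 17.6% lower and 9.78% higher. The share of class II genes called was thus 33.3% and 44.4% against untreated, below the share of all genes, and 33.3% between the irradiated groups, close to it. Over the 3 groups together, 4 of the 9 differed by the F-test of the same model, against 69.3% of all genes. The groups did not overlap for 4 of the 9 genes at day 4 and for 4 at day 7, against untreated, where 67.7% and 62.4% of all genes did not overlap. Their median difference was 0.10 at day 4 and -0.16 at day 7, beside 0.20 and 0.09 over all genes tested. Calls are adjusted p-values under 0.05 from 1 limma model over all 9 arrays, adjusted with the Benjamini-Hochberg method over the 10937 genes.

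**Figure D1:**
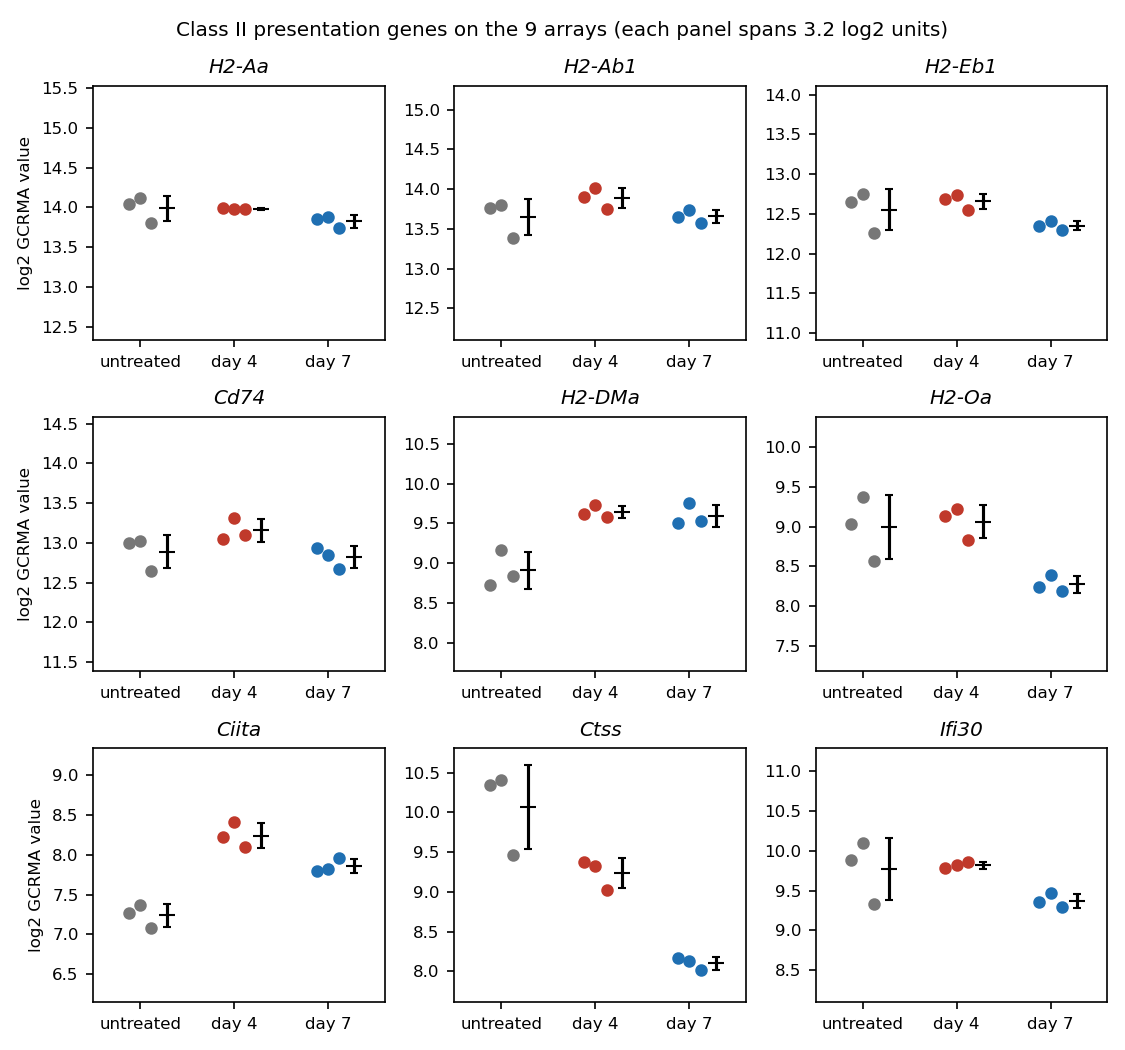
Log2 GCRMA values of the 9 class II presentation genes on each array, with untreated, day 4 and day 7 from left to right. Points are the 3 arrays of a group, and the bar beside them is their mean ± SD. H2-Aa stays between 13.74 and 14.12 on all arrays, while Ctss lies between 8.01 and 8.16 at day 7.

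H2-Aa, the alpha chain of the I-A molecule (probe set 1435290_x_at), read 14.04, 14.12 and 13.81 on the untreated arrays, 14.00, 13.98 and 13.97 at day 4 and 13.85, 13.88 and 13.74 at day 7 (log2). The irradiated arrays lay within the untreated range at day 4 and partly below it at day 7. Its difference from untreated was -0.004 at day 4 (95% interval -0.23 to 0.22, adjusted p 0.974) and -0.16 at day 7 (-0.39 to 0.06, adjusted p 0.186). H2-Ab1, its beta chain (1450648_s_at), read 13.76, 13.80 and 13.39 in untreated, 13.91, 14.01 and 13.76 at day 4 and 13.66, 13.74 and 13.58 at day 7. Each irradiated group overlapped with untreated, while the day 7 arrays lay below all day 4 arrays, and the difference from untreated was 0.24 at day 4 (-0.05 to 0.53, adjusted p 0.129) and 0.01 at day 7 (-0.28 to 0.30, adjusted p 0.971). These intervals reach 0.53, and differences inside them cannot be told from 0 with 3 arrays a group.

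H2-Eb1, the beta chain of the I-E molecule (1417025_at), read 12.65, 12.76 and 12.26 in untreated, 12.68, 12.74 and 12.55 at day 4 and 12.35, 12.41 and 12.30 at day 7. It differed from untreated by 0.10 at day 4 (95% interval -0.19 to 0.40, adjusted p 0.509) and by -0.20 at day 7 (-0.50 to 0.09, adjusted p 0.214). Its partner gene H2-Ea, which C57BL/6 mice are known not to express, read between 3.40 and 3.87 on all 9 arrays, below the detection level of 4, so the H2-Eb1 transcript was measured without that of its alpha chain. Cd74, the invariant chain (1425519_a_at), read 13.002, 13.03 and 12.65 in untreated, 13.05, 13.32 and 13.10 at day 4 and 12.94, 12.85 and 12.68 at day 7. All day 4 arrays lay above all untreated arrays, but the difference of 0.26 was not called (95% interval -0.03 to 0.56, adjusted p 0.107), and at day 7 it was -0.07 (-0.37 to 0.23, adjusted p 0.678).

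Without untreated replicate 3, H2-Aa and H2-Eb1 were called lower at day 7 (-0.25, adjusted p 0.041, and -0.35, adjusted p 0.017). The day 4 differences without that array were 0.11 for H2-Ab1 (adjusted p 0.397) and 0.14 for Cd74 (adjusted p 0.322), also not called, and the day 7 ones were -0.13 and -0.19 (adjusted p 0.343 and 0.214). With all arrays, the differences of H2-Aa, H2-Ab1, H2-Eb1 and Cd74 from untreated lay between -0.20 and 0.26 over both days. On the same arrays the 8 pan-leukocyte genes differed by -7.58 to -0.81 at day 4 (median -3.63). Ptprc, 191-fold lower, was the lowest of them. The 9 thymocyte genes tested differed by -9.97 to -2.50 at day 4, and all 9 were called lower, where 21.4% of all genes were. The 5 tested dendritic-cell markers differed by -1.40 to 1.11 at day 4, with a median of 0.49. The part of leukocytes in the values of these 4 genes was not tested. Each array was also centred on the mean of 4 stromal lists. This shifted the median tested gene by -0.75 at day 4 and -1.05 at day 7. The differences of these 4 genes were then between -0.75 and -0.48 at day 4 and between -1.25 and -1.04 at day 7. All 4 were then called lower at day 7 (adjusted p 4.09e-05 to 0.000364), and H2-Aa and H2-Eb1 at day 4 (adjusted p 0.00356 and 0.0165). With array weights, H2-Aa and H2-Eb1 were called lower at day 7 (adjusted p 0.0385 and 0.0245).

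H2-DMa, the alpha chain of the peptide editor H2-DM (1422527_at), was higher on both days. It read 8.72, 9.16 and 8.84 in untreated, 9.62, 9.72 and 9.58 at day 4 and 9.50, 9.76 and 9.53 at day 7. Every irradiated array lay above every untreated array. H2-DMa rose 1.67-fold at day 4 (difference 0.74, SE 0.13, adjusted p 0.000998) and 1.61-fold at day 7 (0.69, SE 0.13, adjusted p 0.00202). Relative to the median of all genes it was 0.54 and 0.60 higher, a value that no shift of whole arrays can alter, whereas after centring on the 4 stromal lists its difference turned to -0.011 and -0.36 and was not called. Its beta chain can also come from H2-DMb2, which read 10.96 ± 0.14 at day 4 and 10.58 ± 0.06 at day 7, against 10.64 ± 0.38 in untreated (SD, n = 3), with adjusted p 0.132 and 0.787.

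H2-Oa, the alpha chain of the H2-DM inhibitor H2-O (1419297_at), went the other way, and only at day 7 was it called. It read 9.03, 9.37 and 8.57 in untreated, 9.13, 9.23 and 8.83 at day 4 and 8.24, 8.39 and 8.19 at day 7. All day 7 arrays lay below all other arrays. H2-Oa was 1.65-fold lower at day 7 than in untreated (difference -0.72, SE 0.19, adjusted p 0.0122, and -0.93 without untreated replicate 3), and at day 4 it differed by 0.07 (adjusted p 0.761). Its beta chain gene H2-Ob, singled out after its values were seen, read 5.90 ± 0.41 at day 4 and 4.89 ± 0.10 at day 7, against 6.69 ± 0.39 in untreated. H2-Ob fell at both times, with a difference of -0.79 at day 4 (adjusted p 0.0158) and -1.79 at day 7 (adjusted p 0.000336). Of the 9 medullary epithelial genes tested, 8 fell at day 7, where 22% of all genes fell, and 3 at day 4, where 21.4% did. Their mean was 5.73 to 5.93 at day 7 and 6.43 to 6.89 at day 4, against 6.44 to 7.73 in untreated. The part of these cells, and of B cells, in the H2-O values was not tested, and of 9 B-cell markers 6, including Cd79a, Pax5 and Cd22, stayed below the detection level on all arrays. The 2 B-cell markers tested were called in opposite directions at day 7. Cd79b, a B-cell receptor subunit, differed by -0.89 at day 4 (adjusted p 0.0523) and by -1.72 at day 7 (adjusted p 0.00336), and Ebf1, a transcription factor of B cells and some stromal cells, by 1.62 and 1.53 (adjusted p 0.00088 and 0.00175). On chromosome 17, by the RefSeq table of GRCm38.p6, H2-Oa and H2-DMa lie with 1 gene between them, in one region with H2-DMb1, H2-Ab1, H2-Aa and H2-Eb1.

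Ciita, the class II co-activator (1421211_a_at), had the largest rise of the 9 genes at day 4. It read 7.26, 7.37 and 7.08 in untreated, 8.22, 8.41 and 8.10 at day 4 and 7.79, 7.83 and 7.96 at day 7. The 3 groups did not overlap, with day 7 between untreated and day 4. Ciita rose 2.01-fold at day 4 (difference 1.004, SE 0.11, adjusted p 8.75e-05) and 1.54-fold at day 7 (0.62, SE 0.11, adjusted p 0.00188). After centring on the 4 stromal lists the differences were 0.26 (adjusted p 0.298) and -0.42 (adjusted p 0.075), and relative to the median gene they were 0.81 and 0.53. All 3 of its probe sets were called higher at day 4, with differences of 0.83, 1.004 and 1.16, and 2 of the 3 at day 7, the remaining one at 0.36 (adjusted p 0.136). The probe set with the difference of 1.16 (1447075_at) was dim. It read 3.61, 4.04 and 4.04 in untreated, around the detection level of 4.

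Genes that act with Ciita or upstream of it were called in both directions. Of 15 tested genes for class II transcription factors and interferon gamma signalling, 4 rose and 5 fell at day 4, where 63.2% of all genes were called, and 2 rose and 4 fell at day 7, where 54.1% were. Their median difference was -0.11 at day 4 and -0.12 at day 7, beside 0.20 and 0.09 over all genes. Rfx5, a subunit of the RFX complex, rose by 0.31 at day 4 (adjusted p 0.0248) and differed by -0.001 at day 7 (adjusted p 0.994). Nfyb, a subunit of NF-Y, fell, with a difference of -1.503 at day 4 (adjusted p 2.26e-05) and -0.73 at day 7 (adjusted p 0.00205). Creb1, a DNA-binding partner of RFX, fell, with differences of -0.72 and -0.54 (adjusted p 0.00186 and 0.011). Ifngr1, a chain of the interferon gamma receptor, fell, with a difference of -1.14 at day 4 (adjusted p 7.72e-05) and -0.74 at day 7 (adjusted p 0.00135). Irf1, an interferon-induced transcription factor, differed by -0.16 at day 4 (adjusted p 0.283) and rose by 0.54 at day 7 (adjusted p 0.00466). Ifng, the interferon itself, was below the detection level on all 3 day 4 arrays, at 2.71 to 2.86, against 3.14 to 4.48 in untreated. At day 7, at least replicate 3 reached that level.

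Ctss, cathepsin S (1448591_at), had the largest difference of the 9 genes at day 7 and between day 7 and day 4. It read 10.34, 10.41 and 9.46 in untreated, 9.37, 9.32 and 9.03 at day 4 and 8.16, 8.13 and 8.01 at day 7. The groups did not overlap, and untreated replicate 3 lay nearer to the day 4 arrays than to the other untreated arrays. Ctss was 1.77-fold lower at day 4 (difference -0.83, SE 0.23, adjusted p 0.0119) and 3.91-fold lower at day 7 (-1.97, SE 0.23, adjusted p 0.000201). Without untreated replicate 3 the differences were -1.13 and -2.27. The part of macrophages and dendritic cells, which are rich in Ctss, was not tested. Of 12 macrophage markers 7, including Adgre1, Cd68 and Fcgr1, and of 11 dendritic-cell markers 6, including Itgax, Flt3 and Xcr1, stayed below the detection level on all 9 arrays. Of the 5 dendritic-cell markers tested, 4 rose and 1 fell at day 4, with a median difference of 0.49. Of all genes, 41.8% rose and 21.4% fell at that time. At day 7, 1 of the markers rose and 1 fell, where 32.1% of all genes rose and 22% fell. The one that fell at both times was Ccr7, a homing receptor of mature dendritic cells and T cells, with differences of -1.40 and -2.21 (adjusted p 0.000881 and 0.00014). The mean of the 5 tested macrophage genes was 5.91 to 6.09 at day 4 and 5.70 to 5.90 at day 7, against 6.06 to 6.66 in untreated. Lyz2, lysozyme of myeloid cells, differed by -0.82 at day 4 (adjusted p 0.0202) and -2.08 at day 7 (adjusted p 0.000253), and Mrc1, the mannose receptor, by -1.15 (adjusted p 0.0126) and -1.87 (adjusted p 0.00138). Mertk, a receptor for dying cells, rose by 1.22 and 1.71 (adjusted p 0.000473 and 0.000144).

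Ifi30, the lysosomal thiol reductase GILT (1422476_at), read 9.89, 10.10 and 9.34 in untreated, 9.78, 9.82 and 9.86 at day 4 and 9.35, 9.47 and 9.29 at day 7. The day 4 arrays lay within the untreated range, and untreated replicate 3 lay among the day 7 arrays. The difference was 0.05 at day 4 (adjusted p 0.83) and -0.40 at day 7 (95% interval -0.79 to -0.01, adjusted p 0.0749). Without untreated replicate 3, Ifi30 was called lower at day 7 (-0.62, adjusted p 0.0016).

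Other genes of class II handling were described from a list of 14 with a probe set, of which 12 were tested. At day 4, 5 rose and 1 fell, where 41.8% of all genes rose and 21.4% fell. At day 7, 4 rose and 3 fell, where 32.1% of all genes rose and 22% fell. The 3 that fell, named after their values were seen, were H2-Ob, H2-Eb2 and Ctsh. H2-Eb2, a further class II beta chain gene, was 2.29-fold lower (difference -1.20, adjusted p 0.00694). It was also lower at day 7 than at day 4 (-0.88, adjusted p 0.0479). Ctsh, cathepsin H, differed by -0.73 at day 7 (adjusted p 0.0343). The median difference of the 12 tested genes was 0.16 at day 4 and 0.10 at day 7, near the 0.20 and 0.09 of all genes. Ctsb, cathepsin B, rose 1.99-fold at day 4 (adjusted p 0.000218) and 1.34-fold at day 7 (adjusted p 0.0237). Lgmn, the asparagine endopeptidase legumain, rose 2.71-fold and 2.01-fold (adjusted p 0.000219 and 0.00237). Marchf8, a ubiquitin ligase that lowers class II at the surface of thymic epithelium in mice, rose 2.10-fold and 1.56-fold (adjusted p 7.4e-06 and 0.000253). Ctsl, singled out after its values were seen, read 14.41 ± 0.03 at day 4 and 14.58 ± 0.03 at day 7, against 14.41 ± 0.07 in untreated (adjusted p 0.959 and 0.0827). Whether the courses of Ctss and Ctsl differ was not tested.

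**Figure D2:**
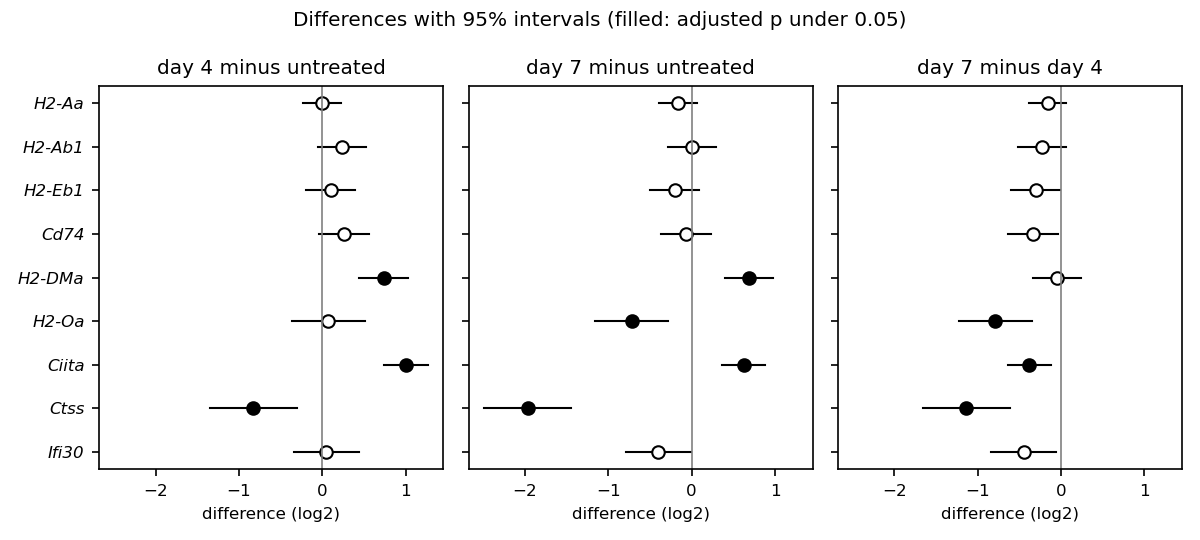
Differences of the 9 class II presentation genes in the 3 comparisons, as log2 values with 95% intervals from the limma model. Filled circles have an adjusted p under 0.05. Ciita and H2-DMa lie to the right of 0 on both days, Ctss to the left, and all 9 genes lie left of 0 in the comparison of day 7 with day 4, 3 of them turning above 0 after centring on the epithelial list.

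The comparison of day 7 with day 4 asked how the genes moved within the irradiated mice. All 9 class II genes had a lower mean at day 7 than at day 4, and 3 of them passed the test. Over all genes tested, 62.2% had a lower mean. Centring on the epithelial list put H2-Aa (0.12), H2-Ab1 (0.051) and H2-DMa (0.24) above 0, and centring on the tested genes put H2-DMa at 0.025. For 8 of the 9 the day 7 arrays lay below all day 4 arrays, the exception being H2-DMa, and 33.8% of all genes tested lay wholly lower in this way, or 51.7% in either direction. Ctss fell by 1.14 (SE 0.23, adjusted p 0.00795). H2-Oa fell by 0.79 (SE 0.19, adjusted p 0.017), a call lost without the filter on dim genes (adjusted p 0.061). Ciita fell by 0.38 (SE 0.11, adjusted p 0.0376), a call lost when arrays were centred on general epithelial genes (-0.10, with an adjusted p of 0.715), after quantile normalization (-0.33, adjusted p 0.063) and without that filter (adjusted p 0.069). Leaving out 1 array at a time ended the call of Ciita in 6 of 9 fits (untreated replicate 1, day 4 replicates 1 and 2, and each day 7 replicate) and that of H2-Oa in 4 (day 4 replicates 1 and 2, day 7 replicates 1 and 3), at adjusted p of up to 0.123 and 0.062.

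The peptide-presenting chains did not pass the test between the irradiated groups. H2-Eb1 differed by -0.31 (95% interval -0.60 to -0.01, adjusted p 0.111) and Cd74 by -0.33 (-0.63 to -0.04, adjusted p 0.0894). H2-Ab1 differed by -0.23 (adjusted p 0.203) and H2-Aa by -0.16 (adjusted p 0.255). Ifi30 differed by -0.45 (adjusted p 0.0826) and H2-DMa by -0.05 (adjusted p 0.815). Without untreated replicate 3, H2-Eb1, Cd74 and Ifi30 were called lower as well (adjusted p 0.029, 0.045 and 0.0080), at the same differences. Over all genes the median difference was -0.10. Relative to it, Cd74 stood at -0.23 and H2-Eb1 at -0.20.

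**Figure D3:**
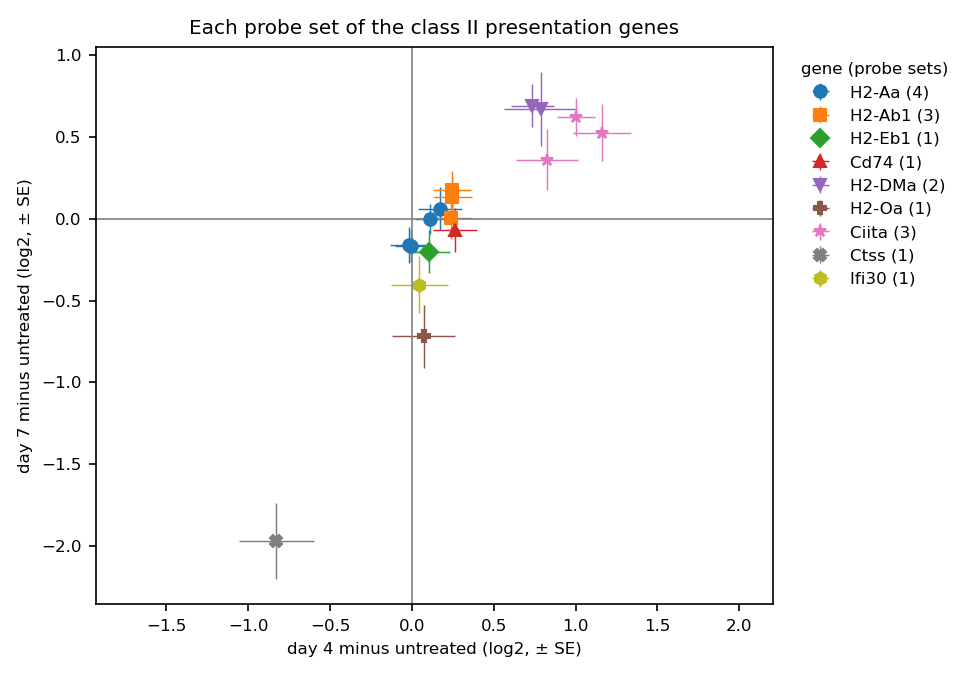
Each of the 17 probe sets of the 9 class II presentation genes, with its difference from untreated at day 4 on the horizontal axis and at day 7 on the vertical axis (log2, bars are SE). The 4 probe sets of H2-Aa and the 3 of H2-Ab1 lie near the origin, and the 3 of Ciita and the 2 of H2-DMa lie together in the upper right.

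Probe sets of the same gene gave like values. With every probe set tested on its own, 5 of the 17 rose and 1 fell at day 4, where 61.4% of all 17819 probe sets were called, 38.5% higher and 22.9% lower. At day 7, 4 rose and 2 fell, beside 52.5% of all called, 30.1% higher and 22.4% lower. Between day 7 and day 4, 0 rose and 4 fell, beside 24.3% of all called, 9.87% higher and 14.5% lower. The 4 probe sets of H2-Aa differed from untreated by -0.02 to 0.17 at day 4 and by -0.16 to 0.06 at day 7, with 0 calls. The 3 of H2-Ab1 differed by 0.24 to 0.25 at day 4 and by 0.01 to 0.17 at day 7, also with 0 calls. The dimmer probe set of H2-DMa, 1459872_x_at, rose by 0.79 at day 4 (adjusted p 0.0137) and by 0.67 at day 7 (adjusted p 0.0324). Several of these carry the ending _x_at or _s_at, by which the maker marks probes that may bind related transcripts, so the signal of near-identical class II genes cannot be told apart there.

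**Figure D4:**
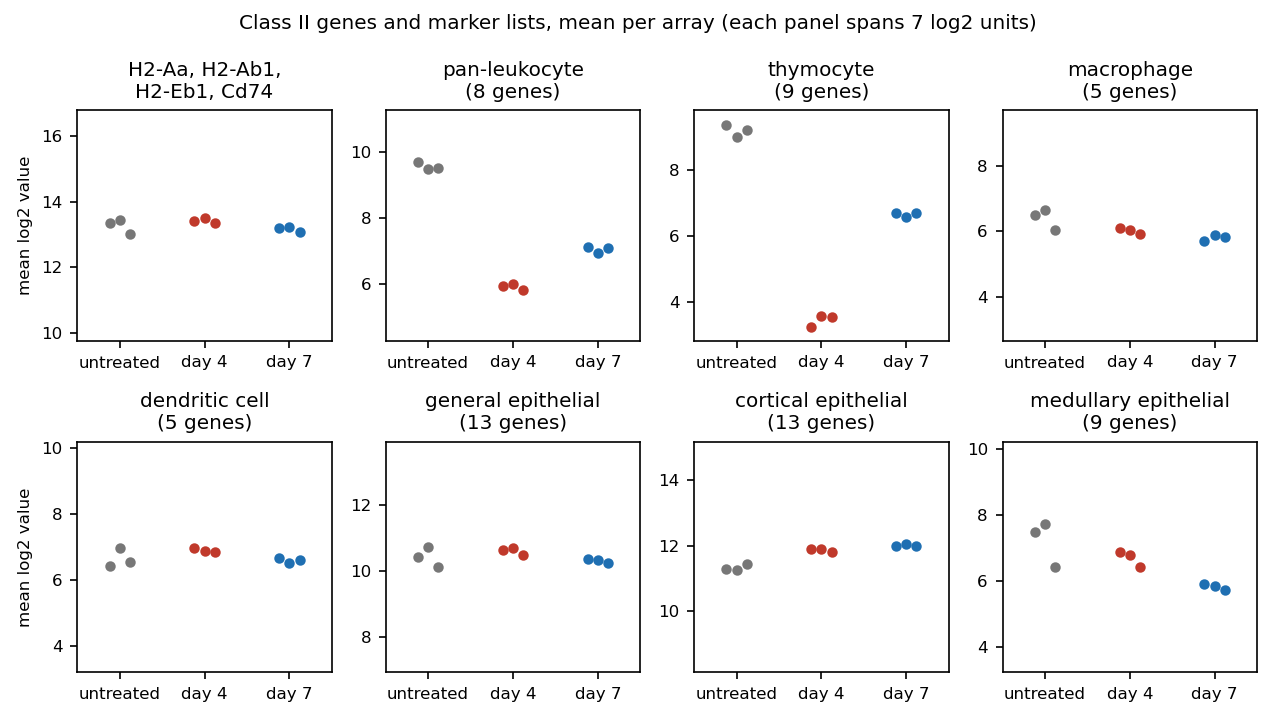
Mean log2 value per array of H2-Aa, H2-Ab1, H2-Eb1 and Cd74 (first panel) and of 7 marker lists, with untreated, day 4 and day 7 from left to right. The class II mean stays between 13.03 and 13.51, while the pan-leukocyte mean is 5.82 to 5.99 at day 4, against 9.49 to 9.71 in untreated.

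Beside the marker lists, the mean of H2-Aa, H2-Ab1, H2-Eb1 and Cd74 lay between 13.35 and 13.51 at day 4 and between 13.07 and 13.22 at day 7, against 13.03 to 13.43 in untreated. The general epithelial list lay between 10.47 and 10.70 at day 4 and between 10.25 and 10.36 at day 7, against 10.11 to 10.71 in untreated. Cortical epithelial genes were higher, at 11.79 to 11.89 at day 4 and 11.98 to 12.04 at day 7, against 11.26 to 11.45 in untreated. Psmb11, a proteasome subunit of cortical epithelium, rose by 0.39 at day 4 and by 0.80 at day 7 (adjusted p 0.0181 and 0.000621). Aire, of medullary epithelium, fell, with differences of -1.32 and -1.97 (adjusted p 0.00471 and 0.000799). The part of the shares of these cell types in the class II values was not tested.

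Across the 9 arrays, which share the 3 groups, the genes outside the list with the pattern most like the mean of H2-Aa, H2-Ab1, H2-Eb1 and Cd74 were Cd82, Sephs2, H2-DMb2, Plekha4 and Gucd1, with Pearson correlations of 0.949 to 0.977. Those most like Ciita were Hadh, Ssh3, Hunk, Rnf43 and Faap20, at 0.991 to 0.994. Ciita itself correlated at -0.02 with H2-Aa, 0.65 with H2-Ab1, 0.27 with H2-Eb1, 0.55 with Cd74 and 0.89 with H2-DMa. These correlations describe 9 arrays in 3 groups and carry no test.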

How the data were processed

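Transcript levels of 9 samples, in 3 groups of 3, were read on Affymetrix mouse arrays with probes near the 3-prime end. The deposited table holds 1 log2 value per probe set and array, made by the authors with GCRMA, per the submitters' processing notes, which corrects background, normalizes and summarises. The sources used here give no version or settings for it, and base 2 follows from the range of the values. Between 26.1% and 27.2% of the values of an array lay at the lowest value of 2.27, which compresses differences of dim genes. Of 45101 probe sets, 34945 had a single symbol. The brightest such probe set, by its mean, was kept for each of 18193 genes, and the 10937 genes at 4 or more on at least 3 arrays were tested. One term per group and no other covariate were fitted with limma 3.58.1 (lmFit, eBayes) in R 4.3.3 to all 9 arrays, and an F-test covered the 3 groups. It was tested on simulated data. Differences are log2 with their standard error (SE). Figures were drawn with matplotlib 3.10.9.

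The members, marker lists and tests were chosen with earlier results of these data known, the looser promoter pair and the paired GAAA run after the sequences were seen. All 9 members are named. Of the other lists, the up to 3 tested genes with the smallest adjusted p and a fixed set (Ptprc, H2-Ea, Rfx5, Irf1, Ifng, Psmb11, Aire, Epcam, Itgax, Adgre1, Cd80) could be named. Genes of like pattern are the 5 with the highest correlation. Alternatives were no filter, a level of 6, other uses of probe sets, an intensity trend, array weights, quantile normalization, 3 centrings, the replicate number as a block and leaving out each array.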

Additional observations from a re-analysis of the deposited data

Results flagged for a closer look

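3 class II genes had a day 7 difference from untreated that itself differed from their day 4 difference, by the limma test of day 7 against day 4. Ctss stood at -1.14 between the times (adjusted p 0.00795), H2-Oa at -0.79 (adjusted p 0.017) and Ciita at -0.38 (adjusted p 0.0376). Ctss was below untreated at both times. H2-Oa was below untreated at day 7 and near it at day 4 (0.07, not called). Ciita was above untreated at both times, less so at day 7. Leaving out 1 array at a time ended the call of Ciita between the times in 6 fits and that of H2-Oa in 4, while Ctss stayed called in each. Groups of 3 arrays are too small to tell an outlying array from ordinary spread.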

How the results depend on the processing

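Of the 10 differences of single class II genes called over the 3 comparisons, all 10 stayed called at a level of 6, with the mean of a gene's probe sets, with every probe set tested, with an intensity trend, with array weights and with centring on the tested genes. With quantile normalization, centring on the epithelial list or the replicate block 9 did, without the filter on dim genes 8, and with centring on 4 stromal lists 6, as 1 was no longer called and 3 turned sign. For the counts of called genes, 4 stromal lists gave 5 at day 4, 7 at day 7, 6 between the times and 8 over the 3 groups. Array weights gave 7 at day 7, 6 between the times and 6 over the groups. No filter gave 1 between the times. Leaving out 1 array gave 3 at day 4, 4 to 7 at day 7, 1 to 6 between the times and 4 to 6 over the groups, the highest counts without untreated replicate 3. The causes were not tested.

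Centring moved the median of all genes at day 4, at day 7 and between the times by -0.11, -0.04 and 0.07 (tested genes), -0.18, 0.10 and 0.28 (epithelial list) and -0.75, -1.05 and -0.30 (stromal lists). The share of calls that were higher was 66.1%, 59.3% and 35.8% as reported, 60.9%, 58.1% and 46.0% after quantile normalization, 57.8%, 56.2% and 47.5% on the tested genes, 53.8%, 68.6% and 72.8% on the epithelial list, and 14.4%, 3.46% and 11.9% on the stromal lists. Against 5915 genes called at day 7 as reported, the stromal lists gave 8995. Against 2991 between the times, the epithelial list gave 1727, and leaving out day 7 replicate 2 gave 1760 and day 4 replicate 2 gave 1905.

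Signs turned as follows. On the stromal lists, day 4 differences were -0.51 (H2-Ab1), -0.64 (H2-Eb1), -0.48 (Cd74), -0.011 (H2-DMa), -0.67 (H2-Oa) and -0.70 (Ifi30), and day 7 ones -1.04 (H2-Ab1), -0.36 (H2-DMa) and -0.42 (Ciita). On the epithelial list, day 4 ones were -0.077 (H2-Eb1), -0.11 (H2-Oa) and -0.13 (Ifi30), the day 7 one of Cd74 was 0.035, and those between the times 0.12 (H2-Aa), 0.051 (H2-Ab1) and 0.24 (H2-DMa). On the tested genes, day 4 ones were -0.0037 (H2-Eb1), -0.035 (H2-Oa) and -0.061 (Ifi30), the day 7 one of H2-Ab1 was -0.029, and that of H2-DMa between the times 0.025. Array weights gave -0.071 (H2-Ab1, day 7) and -0.050 (Ifi30, day 4), quantile normalization -0.13 (H2-Ab1, day 7) and the mean of probe sets 0.064 (H2-Aa, day 4). Leaving out 1 array gave day 4 ranges of -0.094 to 0.060 (H2-Aa), -0.043 to 0.20 (H2-Eb1), -0.14 to 0.26 (H2-Oa) and -0.17 to 0.21 (Ifi30), and day 7 ranges of -0.13 to 0.082 (H2-Ab1) and -0.19 to 0.0032 (Cd74). Apart from H2-DMa and Ciita on the stromal lists, none of these was called as reported.

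The labels do not say whether same-numbered samples were paired. Same-numbered arrays deviated from their group means with correlations of -0.118 to 0.183 over all genes tested. Differently numbered arrays did so with correlations of -0.289 to 0.215. Correlations this weak and few cannot decide whether same-numbered samples shared a step. Among the 9 class II genes, replicate 3 was the lowest of its group for 8 (untreated), 7 (day 4) and 7 (day 7), and replicate 2 the highest for 9, 6 and 6. With the number as a replicate block the counts were 3, 4, 2 and 4, and the call of Ciita between the times was lost (adjusted p 0.055). With 3 arrays a group, the 95% intervals of the chains reach differences of about 0.5, and values near the lowest level of the scale limit what can be seen of dim genes.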

Other observations

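The genes for co-stimulatory molecules of antigen-presenting cells were measured on the same arrays. Of 7 tested, 1 rose and 3 fell at day 4, where 63.2% of all genes were called, and 1 rose and 3 fell at day 7, where 54.1% were. Cd274, the inhibitory ligand PD-L1, rose 1.73-fold at day 4 and 1.69-fold at day 7 (adjusted p 0.000266 and 0.000551). Cd80, a ligand of CD28, read 5.89 ± 0.32 at day 4 (not called) and fell to 4.48 ± 0.15 at day 7, against 6.02 ± 0.87 in untreated (SD, n = 3; adjusted p 0.00732 at day 7). Tnfsf9, the 4-1BB ligand, fell by 1.09 at day 4 (adjusted p 0.00171). Cd40, the receptor of CD40 ligand, fell, with differences of -0.88 and -0.69 (adjusted p 0.00882 and 0.0315), a gene chosen after its values were seen. Cd80 and Cd40 also belong to the medullary epithelial list described above, so both lists overlap.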
